A study of Mus musculus with 6 samples.

Results

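The genes described here are 10 genes of the circadian clock in mouse retina: Clock, Npas2, Per1, Per2, Per3, Cry1, Cry2, Nr1d1, Nr1d2 and Dbp. They were chosen by name, and every probe set that the platform annotation gives to exactly 1 of them was taken, which gave 23 probe sets of the 34945 that name 1 gene (10 of 18193 genes). In RefSeq they lie on chromosomes 5 (Clock), 1 (Npas2 and Per2), 11 (Per1 and Nr1d1), 4 (Per3), 10 (Cry1), 2 (Cry2), 14 (Nr1d2) and 7 (Dbp). Retinas, cleared of pigment epithelium, came from mice of strain BALB/c AJ on post-natal day 40, kept in equal periods of light and dark of 12 h. Wild-type mice (wt/wt) gave 3 arrays, and 3 arrays carry the label of homozygous knockout of Nxnl2 (ko/ko), a gene for a thioredoxin-like protein of photoreceptors. The sources used here give neither how the deletion was made nor the hour at which the mice were killed. Whether the arrays of a group came from separate mice is not said in the labels. The p-values therefore reflect the variation among these arrays alone, possibly technical, and the small number of arrays limits the precision of each value.

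The circadian clock is a feedback loop of transcription. The proteins CLOCK or NPAS2, paired with BMAL1 (gene Arntl), switch on the Per, Cry, Nr1d and Dbp genes through E-box sequences, and the PER and CRY proteins then block that pair. The NR1D proteins, also called REV-ERB, repress Arntl, Npas2, Clock and Cry1 through ROR elements, so transcripts of these genes tend to peak when those of Nr1d1 and Dbp are low. The retina holds its own clock, which helps to time dopamine and melatonin signals and light adaptation. Because the hour of killing is unknown, the arrays were compared for opposed shifts of genes that peak in opposite phases.

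Array values are on a log2 scale, so a difference of 1 is a 2-fold difference, and they came from RMA, a method that normalizes arrays to one distribution. The brightest of 27 Bacillus control probe sets, which match no mouse transcript, read 4.13 to 4.60 across the arrays, and a value below it was not told from background. The brighter Nxnl2 probe set read 11.38 to 11.45 in wild type, and knockout replicates 1 and 2 read 3.78 and 3.73. The array labelled knockout replicate 3 read 9.21, which goes against that label. In this last array 7 of 7 measured rod markers lay over 1 log2 unit below the mean of the other 5 arrays and 7 of 7 olfactory mucosa markers lay as far above it. Its correlation with the other arrays over all probe sets was 0.848 to 0.853, while theirs with one another was 0.994 to 0.996. Its 3′ minus 5′ difference of the Gapdh control, a sign of RNA quality, was 0.44, against -0.04 to 0.05 in the others. The same difference of the actin control was 1.07, within the 1.01 to 1.24 of the others. This array is therefore described on its own, and knockout below means replicates 1 and 2 unless all 6 arrays are named. Retinal identity was borne out by the rod markers in those 5 arrays, where Gnat1, the rod transducin, read 14.14 to 14.17. All 6 listed markers of pigment epithelium and choroid were also above background in those 5 arrays, from Rpe65 at 9.54 to 10.82 to Best1 at 5.64 to 6.01. The retinas were thus not free of such transcripts.

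Across the 5 retinal arrays no clock gene differed between genotypes past the threshold. By limma with Benjamini-Hochberg adjustment over all probe sets, 0 of 23 member probe sets passed an adjusted p of 0.05 in the 5 arrays, where 0.0111% of all 45037 probe sets passed. Adjusted p-values of the members were all 1. At an unadjusted p under 0.05 stood 2 of 23, one of Per2 and one of Dbp, against 3.05% of all probe sets. With all 6 arrays 0 of 23 passed (0.0% of all probe sets), with adjusted p from 0.798 to 0.879 and 0 of 23 at an unadjusted p under 0.05. The member log2 differences in the 5 arrays ran from -0.32 to 0.30 with a median of -0.06, beside a median of 0.00 over all probe sets, and 16 were below 0 and 7 above.

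**Figure D1:**
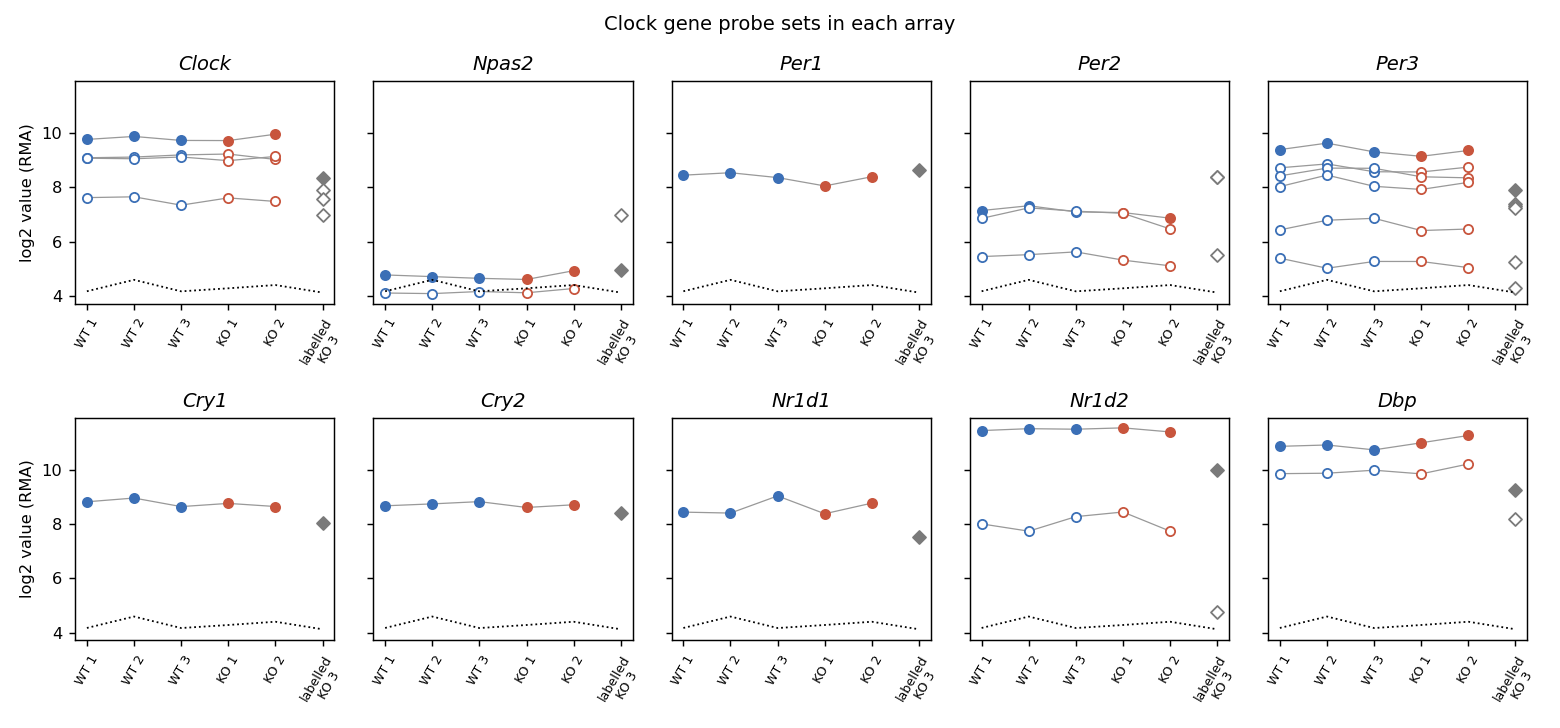
Log2 value of every member probe set in each array, one panel a gene; filled symbols are the brightest probe set, open symbols the others, blue circles wild type, red circles knockout, grey diamonds the array labelled knockout replicate 3, and the dotted line the brightest Bacillus control of each array. Over the 5 retinal arrays no line spans more than 0.77, while in the separate array most probe sets lie lower and Per2 and 1 Npas2 probe set lie higher.

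Clock, the activating subunit with acetyltransferase activity, was among the steadiest members. Its brightest probe set (1418660_at) read 9.76, 9.87 and 9.73 in wild type and 9.72 and 9.96 in knockout, a log2 difference of 0.05 (SE 0.11, 95% interval -0.21 to 0.31). The groups overlapped. Its other 3 probe sets differed by -0.02 to 0.01. These intervals come from limma for each probe set and are not adjusted for the number of probe sets.

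Npas2, the paralogue that can stand in for CLOCK, was close to background. Its brighter probe set (1421036_at) read 4.78, 4.72 and 4.65 in wild type and 4.61 and 4.93 in knockout, all just above the controls. The difference was 0.06 (SE 0.12, 95% interval -0.22 to 0.34), with the 2 knockout arrays on either side of all wild-type values. Its other probe set (1421037_at) read 4.09 to 4.28 in the 5 arrays, below the control level of each, so it gives no level there.

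The Per genes encode members of the repressor complex, and all 10 of their probe sets had a knockout mean below the wild-type mean without any passing. Over all probe sets 51.4% had a difference above 0. Probe sets of the same gene were read on the same 5 arrays and are not independent. Per1, induced quickly by light and by hormones, read 8.45, 8.54 and 8.36 in wild type and 8.05 and 8.39 in knockout (1449851_at). Its difference was -0.23 (SE 0.13, 95% interval -0.52 to 0.06), with knockout replicate 1 alone below the wild-type range. Per2, needed for a lasting rhythm, read 7.15, 7.32 and 7.10 in wild type and 7.07 and 6.87 in knockout by its brightest probe set (1457350_at). Here both knockout values lay just below all wild-type values, and the difference was -0.22 (SE 0.12, 95% interval -0.49 to 0.05). The middle Per2 probe set read 6.86, 7.25, 7.12, 7.05 and 6.47 in the same order, and its groups overlapped. The dimmest Per2 probe set (1417603_at) had the smallest unadjusted p of all members (0.0216, limma adjusted p = 1), with a difference of -0.32 (SE 0.11). All 3 Per2 probe sets were lowest in knockout replicate 2.

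Immediate early genes, which neurons switch on within minutes of a stimulus, were uneven among these arrays. Fos read 9.16, 11.59 and 8.99 in wild type and 10.70 and 8.33 in knockout, so it was highest in wild-type replicate 2 and lowest in knockout replicate 2, as was the brightest Per2 probe set. The part of this in the Per2 values was not tested. Over the 8 listed immediate early genes the median deviation from the wild-type mean was -0.41 in knockout replicate 2 and 0.17 in knockout replicate 1. None of the 8 passed by limma in the 5 arrays (0 called, lowest adjusted p = 1).

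Per3, the Per paralogue that mice can lack with only mild effects on rhythm, was measured by 6 probe sets. The brightest (1458176_at) read 9.39, 9.63 and 9.30 in wild type and 9.14 and 9.36 in knockout, a difference of -0.19 (SE 0.13, 95% interval -0.49 to 0.11). Its groups overlapped, with knockout replicate 1 lowest and wild-type replicate 2 highest. That order held in part for the gene, since 4 of the 6 probe sets were lowest in knockout replicate 1 and 4 were highest in wild-type replicate 2. The 6 differences ran from -0.26 to -0.06. One Per3 probe set (1421087_at) had groups that did not overlap, with wild type at 8.42, 8.71 and 8.70 and knockout at 8.39 and 8.35.

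Cry1 and Cry2, the cryptochromes that carry most of the repression of CLOCK and BMAL1, varied by at most 0.31 over the 5 arrays. Cry1 read 8.82, 8.96 and 8.64 in wild type and 8.76 and 8.65 in knockout, which lay inside the wild-type range. Its difference was -0.10 (SE 0.12, 95% interval -0.38 to 0.17). Cry2 read 8.67, 8.74 and 8.83 in wild type and 8.61 and 8.71 in knockout, a difference of -0.09 (SE 0.10, 95% interval -0.32 to 0.15). Its groups overlapped as well.

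Of these genes 3 carry a clock motif close to their start, and the stretches that hold one are shown because these are the letters that the loop's own proteins are known to bind. In RefSeq promoter windows (build GRCm38.p6, 250 bases before to 50 after a start), 9 of the 10 members had an entry, with 12 windows. The search covered both strands for the E-box CACGTG, the D-box TTANGTAA, bound by DBP and its relatives, and the ROR element TAGGTCA; these motifs do not overlap here. An E-box stood in 2 of the 12 member windows, those of Cry1 and Per1, against 7.15% of 32851 windows of all genes. A D-box stood in 1 of 12, that of Per3, which holds 2 copies, against 2.32% of all windows, and the ROR element in 0 of 12 against 2.61%. Capitals mark the motif, each stretch is written 5′ to 3′ on the strand of its gene, and a match describes the letters in this window only. The Cry1 stretch lies at chr10:85185055-85185154 on the minus strand, with the E-box at bases -60 to -55 from the start. For Per1 it lies at chr11:69098749-69098848 on the plus strand, with the E-box at -166 to -161 from 1 of the 2 starts in the table. For Per3 it lies at chr4:151044776-151044875 on the minus strand, with the D-boxes at -205 to -198 and -158 to -151.
Cry1: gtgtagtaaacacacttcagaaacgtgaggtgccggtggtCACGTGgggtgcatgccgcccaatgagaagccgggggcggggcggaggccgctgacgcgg
Per1: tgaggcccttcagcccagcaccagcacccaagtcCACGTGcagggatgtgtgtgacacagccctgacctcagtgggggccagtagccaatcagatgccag
Per3: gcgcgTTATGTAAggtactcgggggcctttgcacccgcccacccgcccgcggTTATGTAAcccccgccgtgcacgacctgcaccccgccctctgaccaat
Per1 and Cry1, which share the E-box in these windows, were both highest in wild-type replicate 2. They did not share their lowest array: Per1 was lowest in knockout replicate 1 and Cry1 in wild-type replicate 3.

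Nr1d1, the REV-ERBα repressor, varied most of the brightest probe sets, with a range of 0.66. It read 8.44, 8.40 and 9.04 in wild type and 8.38 and 8.77 in knockout (1426464_at). Wild-type replicate 3 was the highest and knockout replicate 2 the next, so both genotypes held a high and a low array. Over all genes above background these 2 arrays also held the highest value most often, in 29.1% and 24.4%. The difference was -0.05 (SE 0.21, 95% interval -0.52 to 0.42). That interval is the widest among the brightest probe sets of the members.

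The profile of Nr1d1 over the 5 arrays was set against 13096 other genes above background, by Euclidean distance between centred log2 values. The nearest were Tbc1d22b (distance 0.11), Vash2 (0.12), Polr2a (0.12), Ppard (0.12) and Zfp316 (0.13). Polr2a, the largest subunit of RNA polymerase II, read 8.94, 8.82 and 9.60 in wild type and 8.93 and 9.25 in knockout. Nearest to its mirror image were Gm7854 (0.08), Mysm1 (0.17), Ptn (0.17), Bcl2l10 (0.19) and Klf12 (0.20). Among the other members the nearest was Cry2, which ranked 2074th (0.46). On the mirror side it was Cry1, which ranked 319th of 13096 (0.40). This distance takes in the size of the changes as well as their direction, and the other members had narrower ranges than Nr1d1 by their brightest probe sets.

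Nr1d2, the REV-ERBβ paralogue, was steady by its brighter probe set and not by its dimmer one. The brighter one (1416958_at) read 11.44, 11.51 and 11.49 in wild type and 11.54 and 11.39 in knockout, a difference of -0.01 (SE 0.10, 95% interval -0.25 to 0.22). The dimmer one (1416959_at) read 8.01, 7.74 and 8.27 in wild type and 8.44 and 7.74 in knockout. Both probe sets were highest in knockout replicate 1 and lowest in knockout replicate 2, with a spread of 0.16 in the first and 0.71 in the second.

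Dbp, the clock-driven activator of D-box genes, had the highest knockout mean relative to wild type among the members. Its brighter probe set (1438211_s_at) read 10.86, 10.91 and 10.73 in wild type and 10.99 and 11.26 in knockout. Both knockout values thus lay above all wild-type values, by a difference of 0.30 (SE 0.12, 95% interval 0.02 to 0.57). It did not pass (limma unadjusted p = 0.0383, adjusted p = 1). The suffix of its name means that its probes may match more than 1 gene. The other probe set (1418174_at) read 9.85, 9.87 and 9.98 in wild type and 9.85 and 10.21 in knockout, so the groups overlapped and the difference was 0.13 (SE 0.13). Both were highest in knockout replicate 2, the array in which the skeletal muscle markers lay 1.91 above the wild-type mean (median of 6 markers, against -0.22 in knockout replicate 1). The part of muscle RNA in the Dbp values was not tested.

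Groups that did not overlap were found for 4 of the 23 probe sets. Knockout lay lower in 3 of them, 2 of Per2 and 1 of Per3, beside 7.86% of all probe sets in that direction. It lay higher in 1, that of Dbp, beside 8.4% of all probe sets. With all 6 arrays, groups did not overlap for 1 member probe set, that of Per3 with knockout lower, beside 4.54% of all probe sets. In the other direction it was 0 of 23, beside 3.79%.

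**Figure D2:**
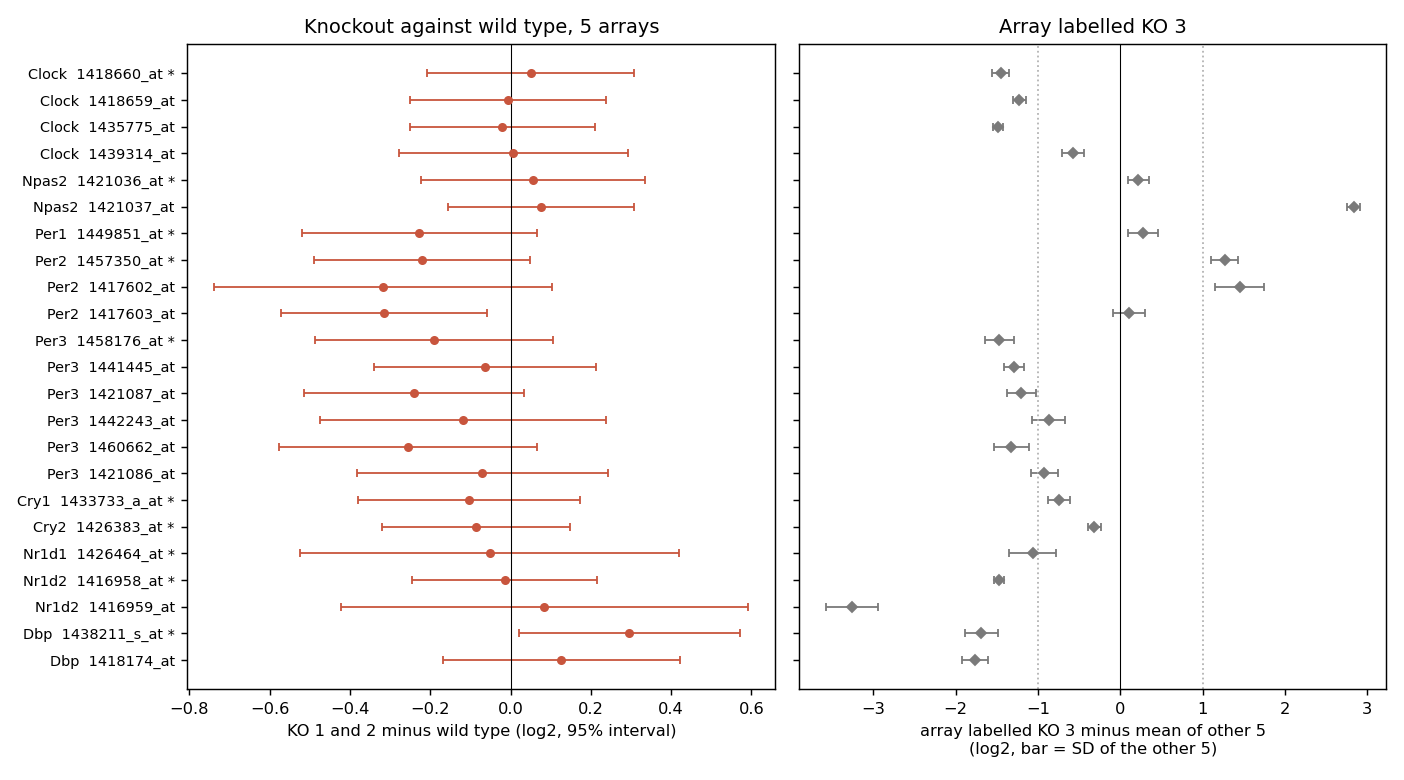
Left, knockout replicates 1 and 2 minus wild type (log2) for each of the 23 member probe sets with its 95% interval by limma; right, the array labelled knockout replicate 3 minus the mean of the other 5 arrays, with bars of 1 SD of those 5 and dotted lines at 1 log2 unit; an asterisk marks the brightest probe set of a gene. On the left all points lie between -0.32 and 0.30; on the right 12 lie over 1 unit below and 3 over 1 unit above.

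The spread among the 5 arrays was slightly wider by median for clock gene probe sets than for probe sets at large, which was not tested. Of the 22 member probe sets above background in all 5 arrays, the range had a median of 0.37, from 0.15 to 0.77, beside a median of 0.30 over all probe sets above background. A range of at least 0.5 was found in 6 of the 22, where 16.7% of all such probe sets reached it. These 6 were 2 of Per2 and 1 each of Per3, Nr1d1, Nr1d2 and Dbp, so none of Clock, Npas2, Per1 or the Cry genes reached it.

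To look for opposed shifts, the members were placed in a day arm (Nr1d1, Nr1d2, Dbp, Per1, Per2, Per3) and a night arm (Npas2, Clock, Cry1), with Cry2 in neither, after their usual place in the loop. For each array the deviation of each gene's brightest probe set from the wild-type mean was averaged over an arm. The day arm stood at -0.05, 0.05 and 0.00 in wild-type replicates 1, 2 and 3, and at -0.14 and 0.00 in knockout replicates 1 and 2. In the same order the night arm stood at 0.02, 0.08 and -0.10 and at -0.07 and 0.07. Among the wild-type arrays the SD was 0.05 for the day arm and 0.09 for the night arm. The day arm of knockout replicate 1 lay outside the wild-type values, and all night arm values of knockout lay within them. Wider arms were also tried, the day arm with Tef, Hlf, Ciart and Bhlhe41 added and the night arm with Arntl and Nfil3. The wider night arm stood at -0.04, 0.02 and 0.02 in wild type and at -0.08 and 0.06 in knockout. There both knockout values lay outside the wild-type values. Of the 10 pairs of retinal arrays, 2 had arms that differed in opposite directions, wild-type replicate 3 against wild-type replicate 1 and against knockout replicate 1. In 0 of the 10 did every gene of one arm move against every gene of the other. In 0 were the arms opposed with both differences over 0.1. The rule on every gene is strict, since a single gene with any small difference breaks it, and Npas2 was close to background. That count therefore does not bear on phase. With the wider arms neither of the 2 opposed pairs stayed opposed. Wild-type replicate 2 and knockout replicate 2 were opposed instead, so which pairs are opposed depends on the genes in the arms.

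Members of the day arm did not move as one. In 0 of the 10 pairs did all 6 day genes differ in the same direction. A single gene with any small difference breaks this rule, so the count does not bear on phase. In knockout replicate 2 Dbp lay 0.44 above the wild-type mean and Nr1d1 0.14 above it, while Per2 lay at -0.32. In wild-type replicate 3 Nr1d1 lay at 0.41, with Dbp at -0.10 and Per3 at -0.14. Knockout replicate 1 held the lowest value of 6 of the 10 genes, among them Per1 (-0.40) and Per3 (-0.30), against 26.1% of all genes above background, but Dbp stood at 0.16 there. In that array the injured retina markers lay 1.29 above the wild-type mean and those of pigment epithelium and choroid at -0.86 (medians of 5 and 6 markers), and their part was not tested. The 1.29 is the value of Fgf2, which read 4.23 there, below that array's control level of 4.29. Of the 5 injured retina markers 3 were above background in all 5 retinal arrays. Wild-type replicate 2 held the highest value of 4 genes, Per1, Per2, Per3 and Cry1, against 14.4% of all genes, and there the lens markers lay at 1.88 (median of 6), also without a test of their part.

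**Figure D3:**
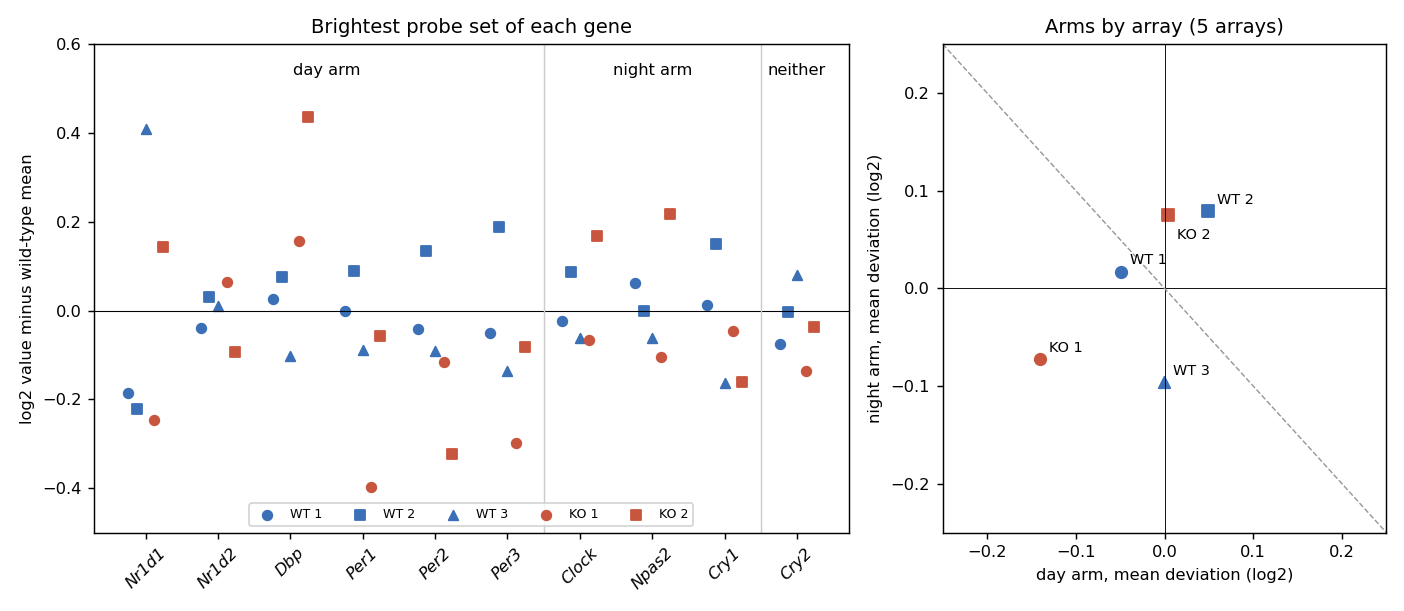
Left, deviation of each member's brightest probe set from the wild-type mean (log2) in the 5 retinal arrays, ordered by arm; right, the mean deviation of the night arm against that of the day arm, 1 point an array, with a dashed line where the arms would move by equal and opposite amounts. The points do not spread along the dashed line: day arm values run from -0.14 to 0.05 and night arm values from -0.10 to 0.08.

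Among other parts of the clock no gene passed either. Of 24 listed partners 22 were measured, 0 passed in the 5 or the 6 arrays by limma, and 15 stood below 0 and 7 above with a median log2 difference of -0.02. Arntl, which encodes BMAL1, read 9.50, 9.43 and 9.69 in wild type and 9.53 and 9.54 in knockout, a difference of -0.0013 (SE 0.11). Nr1d1 and Arntl, the repressor and its classic target, were both highest in wild-type replicate 3, though the dimmer Arntl probe set was lowest there, at 6.58. Bhlhe40, a light-induced repressor also called DEC1, had the smallest unadjusted p of the list (0.0104, adjusted p = 1). It read 8.78, 8.79 and 8.87 in wild type and 9.19 and 9.08 in knockout, a difference of 0.33 (SE 0.10). The groups did not overlap, beside 8.4% of all probe sets with knockout higher. Among the partners Csnk1e also had no overlap, with knockout lower, beside 7.86% of all probe sets.

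Rorb, an activator at ROR elements that is abundant in retina, had the widest range of the partners, 1.52. It read 11.26, 11.30 and 9.78 in wild type and 10.84 and 10.56 in knockout by its brightest probe set. Of its other 2 probe sets, one was also low in wild-type replicate 3 (9.19) and lower still in knockout replicate 2 (9.11). The remaining one was level in wild type, 9.21 to 9.32, and read 8.33 in knockout replicate 2. None passed, though this last one had an unadjusted p of 0.0365 by limma (adjusted p = 1).

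Genes that the retinal clock or light is known to time were also measured. Of 12 listed, 11 were measured and 0 passed, with 6 above 0 and 5 below and a median of 0.02. Drd4, the dopamine receptor of photoreceptors whose transcript is high at night, read 11.98, 11.78 and 11.53 in wild type and 11.48 and 11.63 in knockout. Its difference was -0.21 (SE 0.14), and the groups overlapped. Adcy1, the calcium-stimulated adenylyl cyclase, read 11.52, 11.65 and 11.74 in wild type and 11.79 and 11.64 in knockout. Aanat, the enzyme that sets melatonin synthesis, read 5.97 to 6.06 over the 5 arrays. Nampt, the clock-driven enzyme of NAD synthesis, differed by 0.17 (SE 0.10). In both Aanat and Nampt the knockout values lay above all wild-type values, beside 8.4% of all probe sets.

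**Figure D4:**
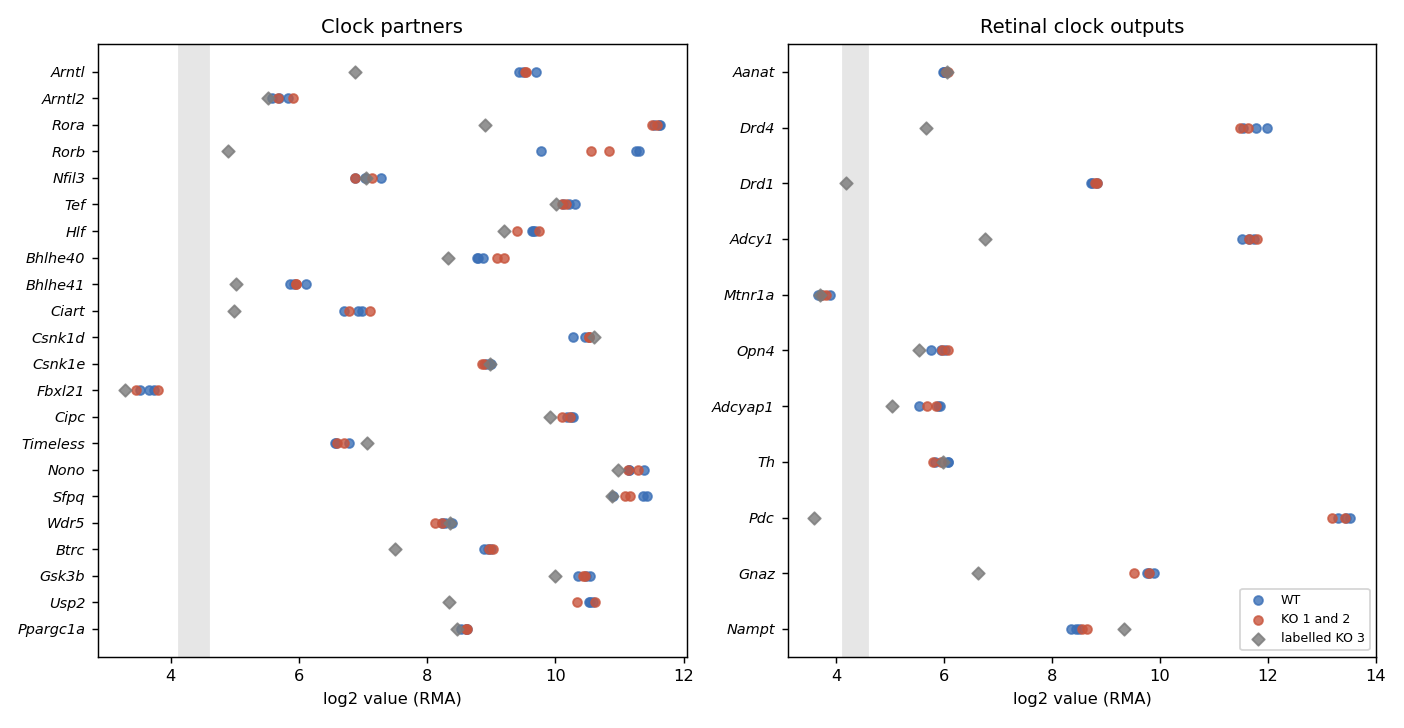
Log2 value of the brightest probe set of each measured clock partner (left) and retinal clock output (right) in each array: blue wild type, red knockout replicates 1 and 2, grey diamonds the array labelled knockout replicate 3; the grey band spans the brightest Bacillus control of the arrays. Blue and red points are most widely spread for Rorb (range 1.52), while the diamonds of Arntl, Rora, Rorb, Usp2, Drd4, Drd1, Adcy1, Pdc and Gnaz lie at least 2 units lower.

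In the array labelled knockout replicate 3 most clock transcripts lay far from the retinal level, and they did not move together. Of 23 probe sets, 12 lay over 1 log2 unit below the mean of the other 5 arrays, beside 11.0% of all probe sets and 16.8% of those above background in the 5, and 3 lay as far above, beside 12.0% of all. Those 12 all belonged to Clock, Per3, Nr1d1, Nr1d2 and Dbp, and probe sets of the same gene are not independent. The median difference was -1.06, against -0.08 over all probe sets. This is 1 array, so there is no test, and errors below are the SD of the other 5. In bulk tissue fewer cells of a type and less RNA per cell cannot be told apart.

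Both arms were among the genes that lay lower. Dbp read 9.26 against 10.95 ± 0.20 (SD, n = 5), and its other probe set 8.19. Nr1d2 lay at -1.47 from its mean of 11.47 ± 0.06, and Nr1d1 read 7.54 against 8.61 ± 0.29. Clock, the activator that usually opposes them in phase, read 8.35 against 9.81 ± 0.10, and its 4 probe sets lay between -1.49 and -0.57. Among the partners Arntl read 6.87 against 9.54 ± 0.10. Per3 read 7.90 against 9.36 ± 0.18, with its 6 probe sets between -1.47 and -0.87 from the mean, and Cry1 read 8.02 against 8.77 ± 0.13.

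The dimmer Nr1d2 probe set had the lowest difference of the members, -3.26, where the brighter one gave -1.47. The level of the first, 4.78, was close to the control level of that array, 4.13. The size of the Nr1d2 difference thus depends on the probe set, though its direction does not.

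Per2, Per1 and Npas2 lay above the retinal mean, by different amounts. Per2 read 8.37 against 7.10 ± 0.16, a difference of 1.27, and the middle probe set gave 1.45, but the dimmest gave 0.11. Per1 read 8.63 against 8.36 ± 0.18 and Cry2 8.40 against 8.71 ± 0.08. The Npas2 probe set that lay below the controls in retina read 6.99 here, at least 6.33-fold above 4.33, the mean control level of the 5 retinal arrays. Its other probe set, at 4.96 against 4.74 ± 0.13, showed a difference of 0.22 only, so the probe sets of Npas2 disagree.

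Per genes thus stood on both sides, with Per2 high and Per3 low. The glucocorticoid-responsive genes, a group to which Per1 and Per2 are known to be open, were also uneven there: 5 of 10 lay over 1 unit above the other arrays and 2 as far below. Over all probe sets the shares were 12.0% above and 11.0% below. Tsc22d3, the leucine zipper protein GILZ, read 9.70 there and 8.36 to 8.60 in the other 5 arrays. The 2 below were Sgk1 and Klf9, at -1.37 and -1.14 from the mean of the other 5. The part of a glucocorticoid response in the Per2 value was not tested. Averaged over the arms, the day genes stood at -0.72 and the night genes at -0.66 from the wild-type mean, so the arms were not opposed. With the mean of all probe sets of a gene these became -0.88 and -0.14.

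Several retinal outputs lay far lower in the same array. Drd4 read 5.67 against 11.68 ± 0.20, Adcy1 6.75 against 11.67 ± 0.10, and Pdc, the photoreceptor phosducin, 3.59 against 13.37 ± 0.13, below the control level. Tef, a relative of Dbp that shares its D-box targets, read 10.01 against 10.18 ± 0.08, and Csnk1e, a kinase of the PER proteins, 8.98 against 8.93 ± 0.06. Among 22 partners 6 lay over 1 unit lower and 0 as far above.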

How the data were processed

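RNA of 6 retinal samples was measured on one-colour Affymetrix arrays. The deposited log2 values were made by the authors with RMA, per the submitters' processing notes; the sources used here do not give its software, version or chip definition. RMA equalises the arrays and so hides a change in total RNA. Of 45101 probe sets 64 controls were left out of the tests. Probe sets were named by the platform annotation, and a gene was represented by the one with the highest mean over 6 arrays.

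Genotypes were compared with limma 3.58.1 (lmFit, eBayes) in R 4.3.3 over 45037 probe sets, with two-sided tests, p-values adjusted by Benjamini and Hochberg, and a limit of 0.05. The series' comparison has 6 arrays; the comparison of 5 leaves out the array labelled knockout replicate 3. Procedures were tested on simulated data. Genes named are all members, the genes of fixed lists, and the 5 genes nearest in profile to the member of widest range and to its mirror image; of the lists the text gives a selection. Members, lists and arms were chosen with earlier results of these data known. Promoter windows are RefSeq's; Per2 had no entry. Figures were drawn with matplotlib 3.10.9.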

Additional observations from a re-analysis of the deposited data

How the results depend on the processing

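No member was called in any alternative run on the 5 or the 6 arrays: a variance trend with robust fit, array weights, repeated quantile normalization, centring on the 75th percentile, dropping the dimmest probe sets (40th percentile), a replicate block, 1 probe set a gene, a threshold of 0.1, and each array left out. Dim-probe removal left no value for Npas2. Over all probe sets, the 0 calls in 6 arrays became 5 with array weights, 1 at a threshold of 0.1, and 0 to 5 with an array left out, the 5 being without knockout replicate 3. In 5 arrays the 5 calls became 2 with 1 probe set a gene and 4 to 11 with an array left out (11 without knockout replicate 1, 9 without knockout replicate 2; the lone knockout array is then assumed to vary like wild type).

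Log2 differences of Cry1, Cry2, Dbp, Per1, Per2 and Per3 kept their sign in all 13 alternatives, but their size moved by over 1.5 times with 1 array left out. Not every alternative could change them. The variance trend with robust fit, dim-probe removal and 1 probe set a gene left these differences as they were. So did the mean of all probe sets for Per1, Cry1 and Cry2. The replicate block gave the same differences as leaving out wild-type replicate 3. With an array left out Per1 ran from -0.40 (without knockout replicate 2) to -0.058 (without knockout replicate 1), and Per3 from -0.30 to -0.083 likewise. Dbp ran from 0.16 to 0.44 and Per2 from -0.12 to -0.32 (without knockout replicates 2 and 1). Cry1 ran from -0.19 to -0.028 (without wild-type replicates 3 and 2) and Cry2 from -0.14 to -0.037 (without knockout replicates 2 and 1). Nr1d1 changed sign with array weights (0.037), a replicate block (0.15) and arrays left out (-0.25 to 0.15). Nr1d2 changed with repeated quantile normalization (0.0064), centring (0.0015), the mean of its probe sets (0.035) and arrays left out (-0.093 to 0.064). Clock ran from -0.067 to 0.17 and Npas2 from -0.10 to 0.22 with an array left out. Same-numbered arrays deviated together with r = -0.07 and 0.15, so the numbers were not taken as pairs; the block gave 6 calls in 5 arrays. In the array labelled knockout replicate 3 the day arm minus the night arm, -0.06, became -0.75 with the mean of all probe sets and 0.15 with wider arms. The mean brings in, among others, the dimmer Npas2 probe set, which read 6.99 there against a wild-type mean of 4.12 that is below the controls. The wider night arm brings in Arntl, at 6.87 against 9.54. The part of each was not tested.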
